A study of Homo sapiens with 4 samples.

Results

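The genes described here are the hydroxysteroid dehydrogenases (HSD), the steroid 5α-reductases (SRD5A), the retinol dehydrogenases (RDH), the DHRS and SDR families of short-chain dehydrogenases and the carbonyl reductases (CBR), chosen by the start of their symbol in the array's annotation. HSD17B7 was left out. The rule found 51 genes of 20046 named on the array, covered by 73 probes, and 37 of the 51 were bright enough to be tested. The arrays measured RNA of 22Rv1, an established human prostate cancer cell line, treated for 16 h with the herbal extract WCE at 10 µg/mL (2 arrays) or with vehicle (2 arrays). Whether the arrays of a group hold separate cultures is not stated in the labels, and the p-values therefore cover the spread of these arrays alone, which may be technical. The comparison asks which of these enzyme genes the extract changes.

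Most of these genes encode short-chain dehydrogenases and reductases, enzymes that bind a nicotinamide cofactor and convert an alcohol to a ketone or aldehyde, or the reverse. Each enzyme mainly works one way, so pairs of them set how much of a hormone is in its active form. In prostate cells, 3β-HSD, 17β-HSD and 5α-reductase lead from adrenal precursors to testosterone and dihydrotestosterone, and oxidative 17β-HSDs lead back to inactive ketones. Retinol dehydrogenases oxidise vitamin A towards retinoic acid, retinal reductases reverse that step, and carbonyl reductases clear quinones, drugs and lipid aldehydes. The 5α-reductases are membrane enzymes of a separate family.

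A single member passed the test, and most of the family differed little between the groups, as did most tested genes. DHRS2, a dicarbonyl reductase, fell 2.01-fold after WCE. It was 1 of 37 members past an adjusted p of 0.05, in a comparison in which 1.89% of all 12136 tested genes passed (229 genes). No member passed in the upward direction, where the share over all genes was 1.18%, and 1 passed in the downward direction, where it was 0.709%. RDH16 and RDH8 entered the test through 1 group alone, and the other 35 members were detected on all 4 arrays. The median log2 fold change of these 35 was -0.05, with 17 above and 18 below 0, beside a median of 0.02 over the 11201 genes detected on all 4 arrays. The groups did not overlap for 20 of the 35 members, against 49.8% of those genes. Of these 20 members 9 were higher and 11 lower after WCE, against 26.3% and 23.5%. An absolute log2 fold change of 0.5 or more was reached by 4 members, or 10.8%, against 12.5% of all tested genes. In 23 members the change was smaller than 0.25. The median absolute log2 fold change was 0.21 over the 37 members, beside 0.19 over all tested genes. Whether the family as a set differed from other genes was not tested.

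**Figure D1:**
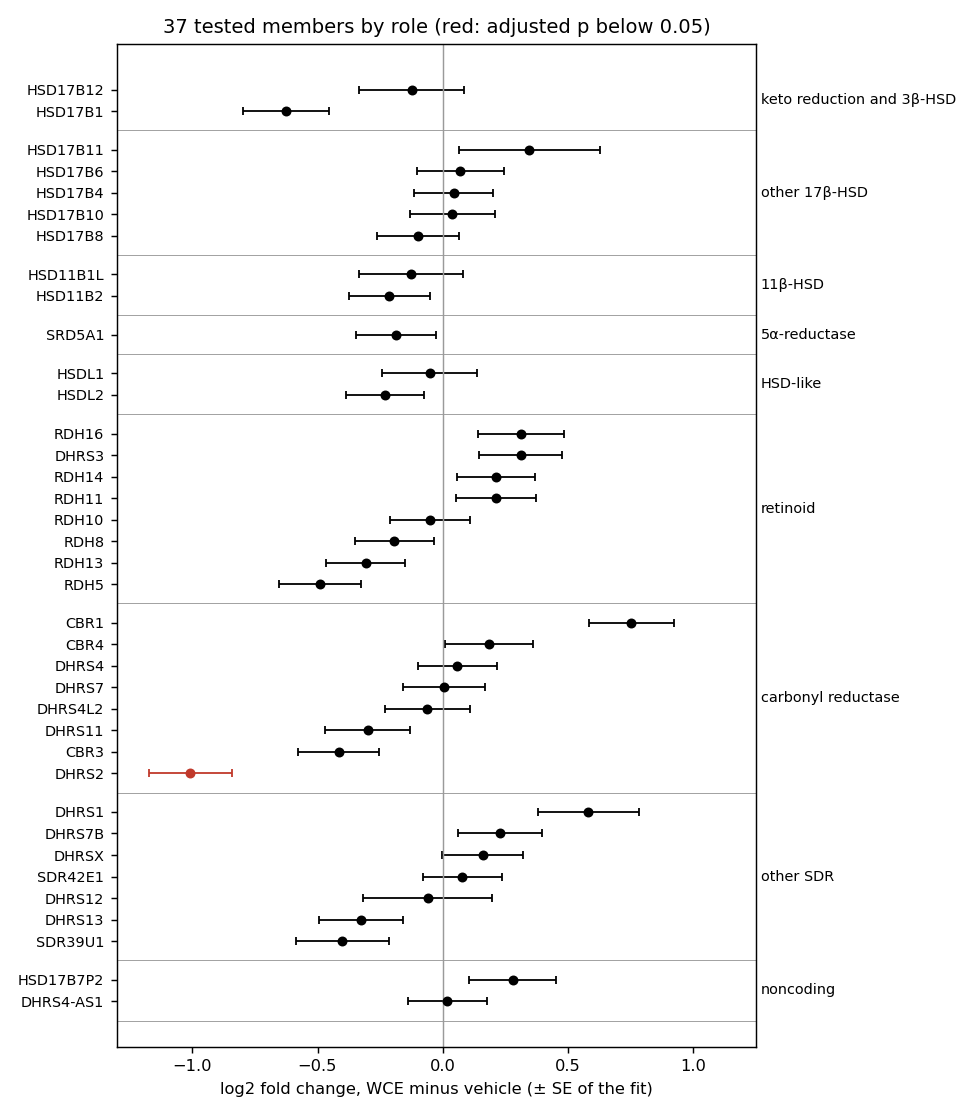
Log2 fold change of WCE minus vehicle for the 37 tested members, grouped by role, with the standard error of the fit as horizontal bars (2 arrays per group). DHRS2 at -1.01 (red) is the member past the adjusted threshold, CBR1 has the highest value at 0.75, and most other members lie within 0.5 of 0.

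Promoters are shown for the members whose change reached 0.5 in size and that matched the RefSeq promoter table (build GRCh38.p14). These were DHRS2, CBR1 and DHRS1, the last with 2 start sites. Each line gives the 250 bases before the start site, 5′ to 3′ on the gene's strand. Capitals mark GCGTG, the core bound by the aryl hydrocarbon receptor, and TGACNNNGC, the core of the antioxidant response element, on either strand. The DHRS2 window lies at chr14:23629865-23630114 and the CBR1 window at chr21:36069774-36070023, both on the + strand. The DHRS1 windows lie at chr14:24299781-24300030 and chr14:24299461-24299710 on the - strand.
DHRS2: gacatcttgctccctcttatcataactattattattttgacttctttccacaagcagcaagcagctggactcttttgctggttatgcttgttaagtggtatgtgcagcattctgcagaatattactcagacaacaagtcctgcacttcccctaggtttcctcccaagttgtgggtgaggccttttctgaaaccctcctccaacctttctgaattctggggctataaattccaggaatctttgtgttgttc
CBR1: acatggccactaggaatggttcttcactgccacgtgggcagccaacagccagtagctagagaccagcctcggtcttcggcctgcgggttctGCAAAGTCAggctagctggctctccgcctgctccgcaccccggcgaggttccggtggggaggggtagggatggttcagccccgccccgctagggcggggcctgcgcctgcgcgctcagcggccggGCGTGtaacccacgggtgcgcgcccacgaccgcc
DHRS1 start 1: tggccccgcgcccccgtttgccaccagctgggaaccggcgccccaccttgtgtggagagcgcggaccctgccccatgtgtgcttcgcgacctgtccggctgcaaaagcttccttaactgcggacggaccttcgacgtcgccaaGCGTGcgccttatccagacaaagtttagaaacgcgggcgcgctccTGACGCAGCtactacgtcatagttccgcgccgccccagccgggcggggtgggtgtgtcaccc
DHRS1 start 2: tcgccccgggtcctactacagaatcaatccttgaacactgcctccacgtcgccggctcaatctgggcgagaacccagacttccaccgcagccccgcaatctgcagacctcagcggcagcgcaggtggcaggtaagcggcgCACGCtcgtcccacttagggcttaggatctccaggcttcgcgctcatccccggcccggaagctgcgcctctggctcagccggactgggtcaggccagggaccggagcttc

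The CBR1 window held 1 GCGTG, starting 34 bases before the start site, and 1 TGACNNNGC, starting 159 bases before it on the opposite strand. The first DHRS1 window held both motifs, starting 107 and 62 bases before the start site, and the second held GCGTG on the opposite strand. Neither motif was found in these 250 bases of DHRS2. No motif overlapped another. Over the 41 windows of the 27 tested members in the table, GCGTG occurred in 51.2% and TGACNNNGC in 9.76%, beside 32.2% and 10.9% of all 35114 windows. With untested members included, the shares were 42.6% and 11.1% of 54 windows. The 35114 windows include genes not tested here, and some members have several windows, so these sets are not alike. A match describes the letters only and names no binding site.

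DHRS2, also known as HEP27, reduces dicarbonyl compounds with NADPH. Its brighter probe (ILMN_2384857) had log2 signals of 8.27 and 8.48 on the WCE arrays and 9.45 and 9.32 on the vehicle arrays. Both WCE arrays lay below both vehicle arrays, by far more than the gap within either pair. The log2 fold change was -1.01 ± 0.17 (SE of the fit, n = 2 per group, adjusted p = 0.0212, limma), with a 95% interval of -1.38 to -0.64. On the raw scale, before background correction, the signals were 403.8 and 388.5 with WCE against 720.6 and 659.3 with vehicle. The second probe (ILMN_1725726) read 6.81 and 6.60 with WCE and 7.56 and 7.59 with vehicle. Its change of -0.87 ± 0.17 ran the same way and did not pass over all 21996 probes (adjusted p = 0.0611, limma), of which 0.846% passed. The brighter probe passed in that test (adjusted p = 0.0406). The call of DHRS2 was lost without vehicle replicate 1 (-0.95, adjusted p = 0.142), without vehicle replicate 2 (-1.07, 0.0628) and without a detection filter (0.0713).

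The 8 tested carbonyl reductases had the widest spread of changes of any role, with DHRS2 at its lower and CBR1 at its upper end. Several other roles held only 1 or 2 tested members, so their spreads are not comparable. CBR1, a cytosolic NADPH-dependent enzyme that reduces quinones, anthracycline drugs and prostaglandins, had log2 signals of 7.34 and 7.62 with WCE against 6.76 and 6.70 with vehicle. Both WCE arrays were brighter than both vehicle arrays. Its log2 fold change was 0.75 ± 0.17 (SE, n = 2 per group), or 1.69-fold, which fell just short of the threshold (adjusted p = 0.0629, limma). It passed in 5 of 17 other settings. They included the strict detection filter (adjusted p = 0.0368, limma), a background offset of 50 and a trended variance. The others were the replicate block and the fit without WCE replicate 1. CBR1 did not pass with any other array left out. Its value was then 0.61 without WCE replicate 2, 0.78 without vehicle replicate 1 and 0.72 without vehicle replicate 2. In all 17 settings it lay between 0.54 and 0.89.

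CBR3, the close paralog of CBR1 with weaker activity on most shared substrates, is its direct neighbour on chromosome 21. Its signals were 8.23 and 8.38 with WCE and 8.78 and 8.66 with vehicle. They lay lower on both WCE arrays, opposite to CBR1. The log2 fold change of -0.42 ± 0.16 (SE, n = 2 per group) did not pass (adjusted p = 0.207, limma). CBR4, the mitochondrial member that pairs with HSD17B8 in fatty acid synthesis, had 0.18 with overlapping groups.

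DHRS2 also sits beside paralogs, in a run of neighbouring genes with DHRS4 and DHRS4L2 on chromosome 14. DHRS4, a peroxisomal reductase of retinal and other carbonyls, had a log2 fold change of 0.06, and DHRS4L2 had -0.06, both with overlapping groups. The second DHRS4 probe had -0.22. A probe of one of these near-identical paralogs may also read the other. DHRS7 had 0.01, and the probes of DHRS11 had -0.30 and -0.04, without passing.

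Several members that make active androgens were not detected. This covers the family alone, and whether genes outside it take those steps was not examined. Of the steroid genes outside it, the aldo-keto reductase AKR1C3 was detected on all 4 arrays. It read 11.73 and 11.88 with WCE and 12.02 and 11.82 with vehicle, with overlapping groups and a log2 fold change of -0.12. HSD17B3, which turns androstenedione into testosterone, HSD3B1 and HSD3B2, which act on dehydroepiandrosterone, and SRD5A2, a 5α-reductase, were detected on none of the 4 arrays. Each of these genes has 1 probe, so a failed probe cannot be told from an absent transcript. HSD17B2, which oxidises testosterone, was also undetected on its 1 probe, and HSD11B1, which regenerates cortisol, on each of its 3 probes. SRD5A1, the 5α-reductase isoenzyme that was detected, had signals of 7.59 and 7.76 with WCE and 7.87 and 7.86 with vehicle. Both WCE arrays lay lower, by a log2 fold change of -0.19 ± 0.16 (SE, n = 2 per group, adjusted p = 0.583, limma). The 95% interval ran from -0.55 to 0.18.

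HSD17B1, which reduces oestrone to oestradiol, had the largest decrease after DHRS2. Its signals were 5.35 and 5.57 with WCE against 6.20 and 5.97 with vehicle, with the lowest detected signal of an array between 5.05 and 5.20. The WCE arrays were lower without overlap, and the log2 fold change of -0.63 ± 0.17 (SE, n = 2 per group) did not pass (adjusted p = 0.107, limma). Without background correction the value was -0.32. A near-identical pseudogene exists, so the probe may not be specific. HSD17B12, the ketoacyl reductase of very long-chain fatty acid elongation, read 11.89 and 11.31 with WCE and 11.65 and 11.79 with vehicle. Its WCE arrays lay far apart and straddled the vehicle arrays, and its probes had log2 fold changes of -0.12 and 0.08.

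None of the 5 tested 17β-HSDs that oxidise steroids or work on fatty acids passed. HSD17B4, the peroxisomal bifunctional enzyme of β-oxidation, read 11.80 and 11.67 with WCE and 11.66 and 11.72 with vehicle. Its groups overlapped, with a log2 fold change of 0.04 and a 95% interval of -0.32 to 0.40. HSD17B10, a mitochondrial enzyme of isoleucine breakdown and a subunit of mitochondrial RNase P, read 10.00 and 10.26 with WCE and 10.15 and 10.04 with vehicle, also overlapping, with changes of 0.04 and 0.14 on its probes. HSD17B6, which can oxidise androstanediol back to dihydrotestosterone, read 6.61 and 6.58 with WCE and 6.68 and 6.37 with vehicle. HSD17B8 had a change of -0.10. HSD17B11, an enzyme of lipid droplets, read 10.34 and 9.98 with WCE and 9.35 and 10.28 with vehicle. Its vehicle arrays were 0.93 apart, the widest gap of any tested member, and its fold change of 0.35 was -0.12 without vehicle replicate 1 and 0.81 without vehicle replicate 2.

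**Figure D2:**
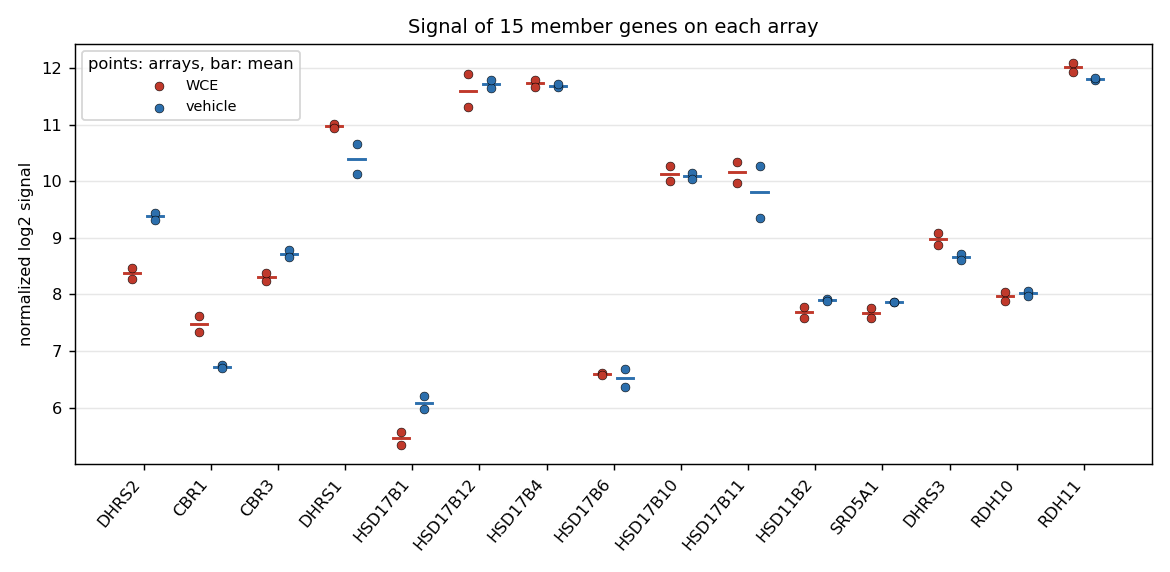
Normalized log2 signal of 15 members on each of the 2 WCE arrays (red) and 2 vehicle arrays (blue), with the group mean as a bar. The groups do not overlap for DHRS2, CBR1, CBR3, DHRS1, HSD17B1, HSD11B2, SRD5A1, DHRS3 and RDH11, and HSD17B12, HSD17B11 and DHRS1 show gaps of over 0.5 between the arrays of 1 group.

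HSD11B2, which inactivates cortisol to cortisone, had signals of 7.59 and 7.78 with WCE and 7.92 and 7.88 with vehicle. Both WCE arrays were lower, with a log2 fold change of -0.21 that did not pass (adjusted p = 0.522, limma). HSD11B1L had -0.13 and 0.11 on its probes. HSDL2, a peroxisomal protein, and HSDL1, a mitochondrial one, had -0.23 and -0.05.

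Of the 8 tested retinoid enzymes none passed. Among the 6 detected on all 4 arrays, 3 had values above 0 and 3 below. RDH11, a retinal reductase abundant in prostate epithelium, read 12.09 and 11.94 with WCE and 11.79 and 11.82 with vehicle. Both WCE arrays were higher, by 0.21 on this probe and 0.33 on the second, without passing. DHRS3, which reduces retinal to retinol and is induced by retinoic acid, read 8.87 and 9.08 with WCE and 8.71 and 8.61 with vehicle. The groups did not overlap, and the log2 fold change of 0.31 ± 0.16 (SE, n = 2 per group) did not pass (adjusted p = 0.35, limma).

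RDH10, the retinol dehydrogenase that starts retinoic acid synthesis and forms a complex with DHRS3, read 8.04 and 7.89 with WCE and 8.06 and 7.98 with vehicle. Its groups overlapped, with a log2 fold change of -0.05. RDH5, known as the 11-cis-retinol dehydrogenase of the eye, was chosen after its values were seen, as the member just under a change of 0.5. It read 8.49 and 8.58 with WCE and 8.94 and 9.11 with vehicle, a log2 fold change of -0.49 ± 0.16 (SE, n = 2 per group, adjusted p = 0.154, limma). RDH13 had -0.31, and RDH14 had 0.21 and -0.08 on its probes. RDH16 and RDH8 lay at the detection limit. RDH16 was detected on both WCE arrays and 1 vehicle array, and RDH8 on both vehicle arrays and neither WCE array. The fold bound for RDH8 was 1.01. Its log2 fold change of -0.19 did not pass (adjusted p = 0.56, limma), with a 95% interval of -0.55 to 0.17. One vehicle signal of RDH8, 5.10, lay below the lowest detected signal of WCE array 2, 5.20, so a decrease is not established. DHRS9, RDH12 and SDR16C5 were detected on no array.

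DHRS1, a short-chain dehydrogenase of the endoplasmic reticulum, had the second largest increase. Its signals were 11.01 and 10.94 with WCE and 10.67 and 10.13 with vehicle. Both WCE arrays were brighter, but the vehicle arrays were 0.54 apart. The log2 fold change was 0.58 ± 0.20 (SE, n = 2 per group, adjusted p = 0.168, limma). It was 0.31 without vehicle replicate 2 and 0.85 without vehicle replicate 1.

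Of the remaining short-chain dehydrogenases, SDR39U1 had -0.40 and -0.20 on its probes, DHRS13 had -0.33 and DHRS7B, a peroxisomal enzyme of ether lipid synthesis, had 0.23. DHRSX and SDR42E1 had 0.16 and 0.08. The probes of DHRS12 had -0.06, 0.25 and -0.17. The probes of the antisense transcript DHRS4-AS1 had 0.02 and 0.25, the second with groups that did not overlap, and the pseudogene HSD17B7P2 had 0.28, though its probe may also read its parent gene. None of these passed. DHRS7C, HSD17B13, HSD17B14 and the noncoding HSD52 were detected on no array, and SDR9C7 on 1. In all, 13 of the 14 untested members were detected nowhere.

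**Figure D3:**
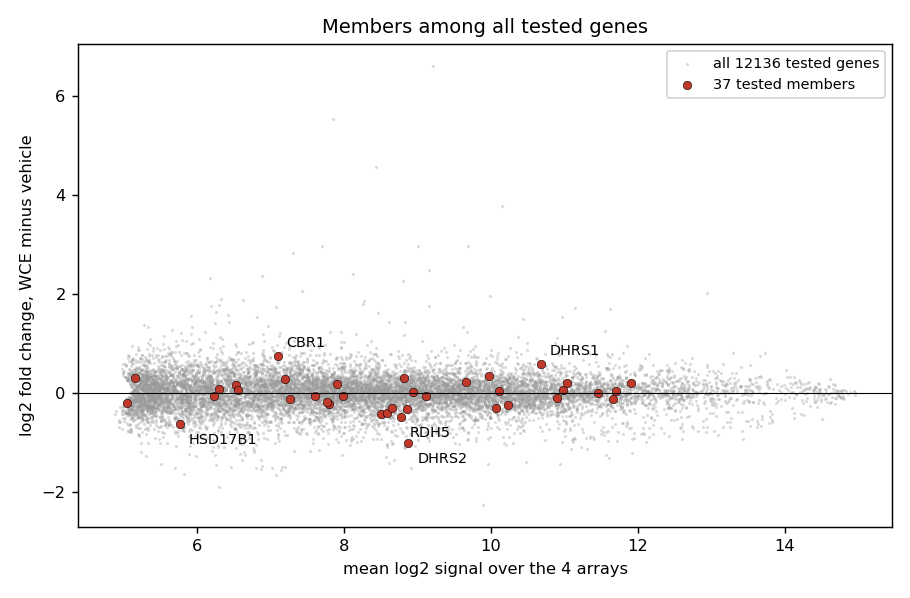
Log2 fold change of WCE minus vehicle against mean log2 signal for all 12136 tested genes (grey) and the 37 tested members (red). The members stay between -1.01 and 0.75, while the largest change of any gene reaches 6.61.

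At an unadjusted p of 0.05, 6 members passed, or 16.2%, against 19.1% of all tested genes. CBR1 and DHRS1 were higher, where the share over all genes was 9.87%, and DHRS2, HSD17B1, RDH5 and CBR3 were lower, where it was 9.25%. Members with more than 1 detected probe numbered 12, and in 5 of them the probes differed in sign, all with small changes. The 5 were HSD11B1L, HSD17B12, DHRS4, DHRS12 and RDH14. DHRS2 had the largest changes of the 12, on both of its probes.

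**Figure D4:**
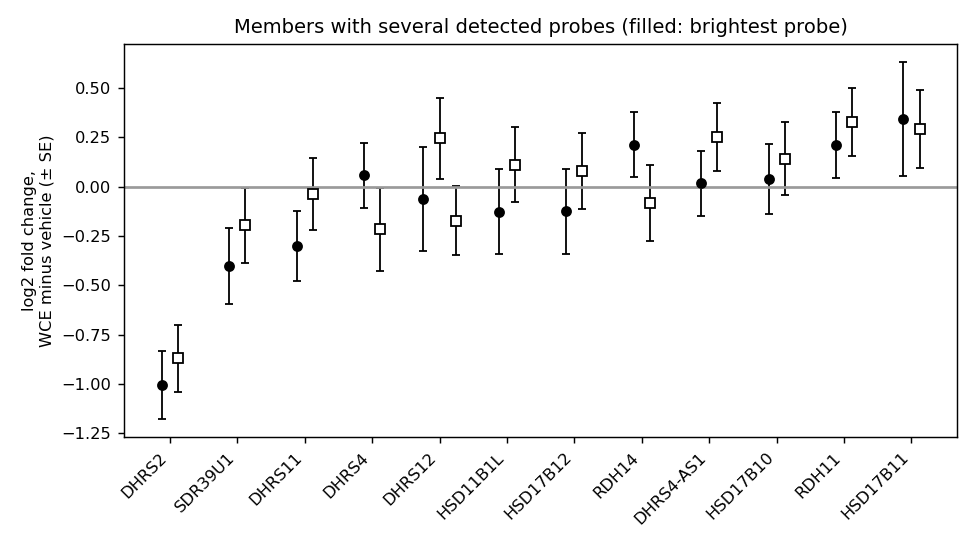
Log2 fold change of WCE minus vehicle, with the standard error of the fit, for each detected probe of the 12 members with several probes. Filled circles are the brightest probe and open squares the others, and both DHRS2 probes (-1.01 and -0.87) stand below every other probe shown.

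Among steroid genes outside the family, 1 of the 17 tested genes of a list of 30 rose and 1 fell, or 11.8%, against 1.89% of all tested genes. The list was written with earlier results of these data known, so this share is not independent evidence. Their median log2 fold change was -0.12, beside 0.02 over all tested genes. AKR1C2, an aldo-keto reductase that inactivates dihydrotestosterone, rose by 1.54 ± 0.16 (SE, adjusted p = 0.00201, limma), and close paralogs may share its probe. UGT2B15, which conjugates androgens, fell by 0.96 ± 0.16 on the log2 scale (adjusted p = 0.0222, limma). UGT2B17, PAPSS2, AKR1C4 and PAPSS1 had -0.76, 0.64, 0.55 and -0.47 and did not pass.

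Retinoid genes outside the family had no member past the threshold among 13 tested of a list of 32, where the share over all genes was 1.89%. Their median was -0.21, and RARG, RXRG and ALDH1A3 among them were not detected on every array. The retinoic acid receptor RARB had -0.64, the retinal dehydrogenase ALDH1A1 0.80, the retinoic acid carrier CRABP2 -0.52 and the alcohol dehydrogenase ADH5 -0.43. These 4 had an unadjusted p below 0.05, or 30.8% of the 13 tested, against 19.1% of all tested genes. Earlier results of these data were known when this list was written, so the share is not independent evidence.

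**Figure D5:**
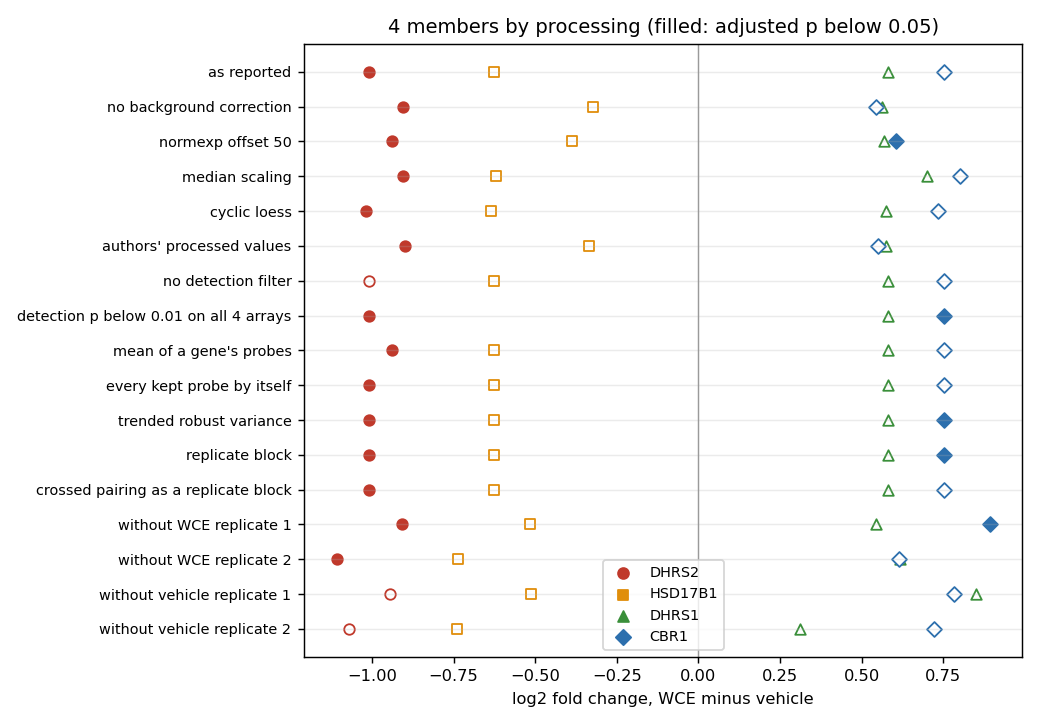
Log2 fold change of DHRS2, HSD17B1, DHRS1 and CBR1 under each processing setting, filled where the adjusted p was below 0.05. DHRS2 stays between -1.11 and -0.90 and CBR1 between 0.54 and 0.89, and no symbol crosses 0.

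The labelled cell type was checked against markers. Of 9 prostate epithelial markers with a named probe, 8 were detected on all 4 arrays, including EPCAM, HOXB13 and FOLH1, and KLK3 on none. TMPRSS2 and KLK2, both induced by androgens, fell among them. TMPRSS2 read 6.18 and 6.32 with WCE against 8.04 and 7.77 with vehicle (adjusted p = 0.00201, limma), and KLK2 read 6.04 and 5.49 with WCE against 6.92 and 6.71 with vehicle (adjusted p = 0.0426, limma). Their part in the members' changes was not tested. Both basal keratins were undetected, as were 2 of 3 leukocyte markers and 3 of 6 stromal ones. The leukocyte marker CD14 was detected on all 4 arrays, at 5.91 and 5.93 with WCE and 6.35 and 6.30 with vehicle. So were the stromal markers VIM and COL1A1, and DCN was detected on 1 WCE array and both vehicle arrays. The log2 of the summed signal of the epithelial markers, to which EPCAM and CDH1 gave most, was 13.63 to 13.66 with WCE and 13.67 to 13.70 with vehicle, and that of the stromal markers was 9.11 to 9.44 with WCE and 9.32 to 9.48 with vehicle. The share of probes detected on an array was 45.2% to 48.9%. Across all tested genes the median gap between the arrays of a group was 0.20 for WCE and 0.16 for vehicle, and among members it was 0.18 and 0.10. In bulk RNA, fewer cells with a transcript and less of it per cell cannot be told apart.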

How the data were processed

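The authors deposited raw intensities of Illumina bead arrays, whose values are linear and show no normalization, with a detection p-value beside each, per the file headers. They also deposited processed log2 values, with a normalization not given in the sources used here. These had column medians of 6.40, ranks equal to the raw signals, and differed by at most 0.136 from log2 raw signals after quantile normalization. Their scale is therefore log2, without centring of genes.

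Background was corrected in limma 3.58.1 (R 4.3.3) by normexp, with an offset of 16 and with the negative controls' mean and SD derived from detection p-values. Log2 signals were then quantile-normalized. Signals and changes are on that log2 scale. The platform annotation gave a single symbol to 30112 of 47320 probes, several to 8 and none to 17200, and those 8 were not named. All 51 member symbols were current in RefSeq. A probe was tested when both arrays of either group had a detection p-value below 0.05 (21996 probes), and the brightest stood for its gene (12136 genes). Groups were compared with lmFit and eBayes, adjusted by Benjamini-Hochberg over all genes at 0.05. Residual degrees of freedom were 2 and prior ones 7.12. An exact two-sided permutation test of 2 against 2 cannot go below p = 0.333, so calls rest on limma's pooled variance, and the number of arrays limits the precision. The fit was tested on data simulated with variances drawn from its own fitted model, which cannot show whether that model holds for these arrays. A fold bound sets the group mean against the higher of the dim probe's signal and the lowest detected signal on each array.

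The members and lists were chosen with earlier results of these data known. Given on every array were members past the threshold, those with a change of at least 0.5 and groups that did not overlap, and 14 set genes where tested. Of the pathway lists, genes past the threshold and up to 4 others of smallest p were named, and AKR1C3 was added for its detection. Alternatives were other background corrections, normalizations, filters, probe rules and variance models, a replicate block, a minimum of 1.5-fold and leaving out each array. SRD5A3 is not analysed here.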

Additional observations from a re-analysis of the deposited data

How the results depend on the processing

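The number of genes called, 229 in all, depended strongly on the processing. It was 388 without background correction, 368 with an offset of 50, 402 with the authors' processed values, 457 with a trended robust variance, 53 without a detection filter, 138 with every probe tested by itself, and 132 with median scaling (102 higher, 30 lower, against 143 and 86). It ranged from 75 to 828 with 1 array left out. With an array left out, its lone partner is taken to vary as the other group does. The count of members called, 1 as reported, was 2 (DHRS2 and CBR1) with an offset of 50, with a trended variance and with detection p below 0.01 on all 4 arrays, 0 without a detection filter, and 0 to 2 with 1 array left out. The members' median of -0.05 was 0.0454 with median scaling, which put the median of all genes at 0.09, and -0.08 to 0.01 with 1 array left out. With the replicate number as a block, 745 genes and 2 members passed. Deviations of same-numbered arrays correlated at -0.159, and the number was not treated as a pairing. This value cannot settle whether same-numbered arrays were handled together, which the labels do not state. The crossed pairing, chosen after seeing the data, gave 167 genes and 1 member. DHRS2 passed in 14 of 17 alternatives and was lower in all of them. The replicate block gave it the smallest adjusted p (0.000527, limma), but that fit gave all named members the same SE of 0.2236. The 1.5-fold minimum reused the reported fit and could not drop DHRS2, which fell 2.01-fold. Among genes that did not pass, RDH10 had 0.0211 with median scaling. With 1 array left out, the ranges were -0.13 to 0.0238 for RDH10, -0.0217 to 0.11 for HSD17B4, -0.0878 to 0.23 for HSD17B6, -0.0944 to 0.17 for HSD17B10, -0.12 to 0.81 for HSD17B11 and -0.42 to 0.17 for HSD17B12. HSD17B1 was not tested with detection p below 0.01 on all 4 arrays. The cause of these shifts was not tested.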
